A study of Mus musculus with 2 samples.

Results

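The genes described here are Ly6d, Sprr1a, the keratins Krt8, Krt18 and Krt23, the annexins Anxa2 and Anxa5, and S100a6, S100a10 and S100a11, which were taken by symbol and make up 10 of the 32285 genes in the tables of both liver sections. They were chosen by earlier values of these same sections, namely CPM (defined below) by section, by position in the liver lobule and by co-detection with Ly6d, so all values of these kinds are given as a description. The study compared normal chow diet (NCD) and high-fat diet (HFD) mice, a model of NAFLD, by spatial transcriptomics (ST) with 10x Visium slides, on which barcoded spots capture the RNA of the tissue lying above them. The mice were male C57BL/6J, bought at 5 weeks of age, and kept on chow or on a diet with 60% fat for 14 weeks. They were then given distilled water by gavage once daily for 8 weeks, as the methods give it. The methods do not say whether the diets went on over these 8 weeks. One NCD mouse and one HFD mouse gave 1 perfused, frozen liver section of 10 µm each. Each diet is therefore 1 animal, 1 section and 1 library, so diet, animal, section and slide cannot be told apart, no test between diets is possible, and the intervals below cover counting error only.

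Epithelial cells under stress are known to rebuild their cytoskeleton and membrane, and the genes described here act in that setting. Krt8 and Krt18 pair into the intermediate filaments of hepatocytes and are the main proteins of Mallory-Denk bodies in steatohepatitis, while Krt23 is an acidic keratin. Anxa2 and Anxa5 bind membrane phospholipids in the presence of calcium, S100a10 is the partner that joins Anxa2 into a tetramer, and S100a6 and S100a11 are small calcium-binding proteins that also bind annexins. Ly6d is a GPI-anchored surface protein best known from squamous epithelium and early B lineage cells, and Sprr1a is a proline-rich protein of the cornified envelope of squamous cells that other injured tissues can also make.

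Spots over tissue numbered 3692 in NCD, with 29037988 UMIs (unique molecules counted) and a median of 4187.5 per spot, and 3594 in HFD, with 72118803 UMIs and a median of 18549. Levels are therefore given as CPM, the UMIs of a gene per 1000000 UMIs of the same spots. In the NCD section 840 spots had fewer than 1000 UMIs, against 4 in the HFD section, and spots off tissue held 19.1% of the NCD UMIs and 2.93% of the HFD UMIs. The sections shared 3173 spot barcodes, which mark positions on the slide design. The labels name an immune cell type and a hematopoietic stem cell line, but a list of 8 hepatocyte genes led by Alb held 119793 CPM in NCD and 137523 CPM in HFD, so both sections are described as liver tissue. A spot holds RNA of several cells, so fewer cells of a type and less RNA per cell cannot be told apart.

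Sprr1a and the S100 genes lie within a stretch of chromosome 3 known as the epidermal differentiation complex and its S100 cluster. In GENCODE M21 on GRCm38 (the build mm10 named in the processing notes), Sprr1a spans chr3:92483952-92485895 on the minus strand, S100a6 chr3:90612882-90624181, S100a11 chr3:93520488-93526287 and S100a10 chr3:93555080-93564643, these on the plus strand. Krt8, at chr15:101996698-102004482 on the minus strand, and Krt18, at chr15:102028180-102032027 on the plus strand, are neighbours, and Ly6d lies on the same chromosome at chr15:74762056-74763620 on the minus strand. RefSeq promoter windows (GRCm38.p6, 250 bases before to 50 bases after the start) were at hand for 8 of the genes. The letters TGANTCA, bound by AP-1 (Fos and Jun family dimers) and the same read on either strand, were present in 3 of these windows and in 7.81% of 32851 windows of the same length. They occurred at 2 places in Sprr1a and in S100a11, as in 0.46% of all windows, and at 1 place in Anxa2. GGAATG, bound by TEAD factors and searched on both strands, was in none of the 8 windows and in 14.7% of all windows. Both motifs were chosen after these sequences had been seen, and a match is a description of letters, not a binding site. The stretches before the annotated starts of the 3 genes with a match are shown 5′ to 3′ on the strand of the gene, with the AP-1 letters in capitals, for Sprr1a at chr3:92485896-92486131, for S100a11 at chr3:93520246-93520487 and for Anxa2 at chr9:69453433-69453619.
Sprr1a: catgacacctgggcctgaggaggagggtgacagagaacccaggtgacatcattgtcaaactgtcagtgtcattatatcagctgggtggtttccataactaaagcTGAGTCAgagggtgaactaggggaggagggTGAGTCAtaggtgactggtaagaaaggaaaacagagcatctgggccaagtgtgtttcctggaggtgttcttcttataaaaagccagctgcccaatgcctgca
S100a11: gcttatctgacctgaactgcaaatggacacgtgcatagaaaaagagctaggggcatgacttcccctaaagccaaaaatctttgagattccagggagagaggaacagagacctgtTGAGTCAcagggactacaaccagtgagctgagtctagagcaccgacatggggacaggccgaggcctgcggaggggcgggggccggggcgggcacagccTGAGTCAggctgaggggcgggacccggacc
Anxa2: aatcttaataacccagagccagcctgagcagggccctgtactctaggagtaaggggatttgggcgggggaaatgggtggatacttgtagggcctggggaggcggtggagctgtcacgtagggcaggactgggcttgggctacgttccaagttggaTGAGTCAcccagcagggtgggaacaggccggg

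All 10 genes had a higher CPM with HFD than with NCD, and 8 were at least 2-fold higher. Of the 11913 genes that reached 100 UMIs in the sections together, 10.8% were at least 2-fold higher and 2.06% at least 2-fold lower. Because the genes were listed with this contrast known, nothing is read from that count. The largest ratios belonged to the squamous genes. Sprr1a had 1 UMI in the NCD section (0.0344 CPM) and 1002 UMIs in the HFD section (13.9 CPM), a ratio of 403 with a counting interval from 72.2 to 15951. Ly6d had 191 UMIs (6.58 CPM, 5.68 to 7.58) in NCD and 11774 UMIs (163 CPM, 160.3 to 166) in HFD, a 24.8-fold ratio (log2 4.63, 4.43 to 4.85). These were the third and the fourteenth highest ratios among the genes with at least 100 UMIs.

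The keratins of hepatocytes had smaller ratios than the squamous genes, at higher levels. Krt8 stood at 141 CPM in NCD and 391 CPM in HFD (log2 ratio 1.48, 1.43 to 1.52), and its filament partner Krt18 at 128 and 205 CPM (0.68, 0.62 to 0.73). The Krt8 ratio was thus larger than the Krt18 ratio beyond counting error. Krt23 was rare in both sections, with 23 UMIs (0.792 CPM) in NCD and 318 UMIs (4.41 CPM) in HFD (log2 2.48, 1.87 to 3.16).

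Of the annexins, Anxa2 stood at 10.6 CPM in NCD and 78.7 CPM in HFD (log2 ratio 2.89, 2.72 to 3.06), and Anxa5, the phosphatidylserine binder, at 72.4 and 258 CPM (1.83, 1.77 to 1.90). The partner of Anxa2, S100a10, had the highest level of the 10 genes in both sections but one of the smaller ratios, with 249 CPM in NCD and 523 CPM in HFD (1.07, 1.04 to 1.11). S100a11 stood at 13.4 and 57.9 CPM (2.12, 1.97 to 2.27) and S100a6 at 20.8 and 34.7 CPM (0.74, 0.61 to 0.87). S100a6 and Krt18 were the 2 genes below 2-fold. With the ratios centred on the median over genes, which shifted them by 0.19 (log2), S100a10 also fell below 2-fold at 0.89.

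**Figure D1:**
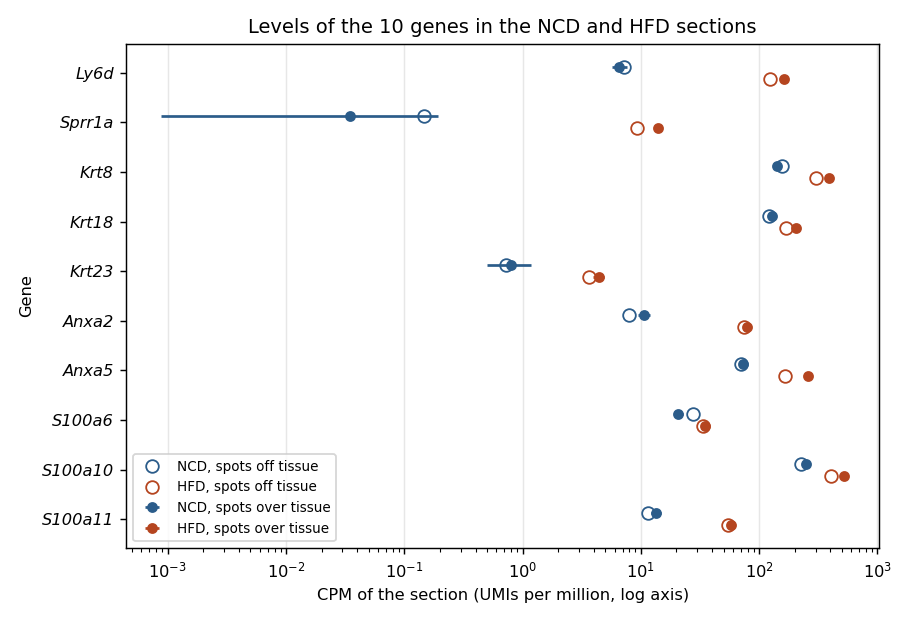
Level of each of the 10 genes (CPM, log axis) in the NCD section (blue) and the HFD section (red), with filled points for spots over tissue, 95% counting intervals as bars and open circles for spots off tissue. Each filled HFD point lies to the right of the NCD point, by the widest gaps for Sprr1a and Ly6d, and open circles and filled points of a section lie closest for Anxa2, S100a6 and S100a11 in HFD and apart for Anxa5 in HFD (166 against 258 CPM) and for Sprr1a in NCD, which had 1 UMI on each side.

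Spots off tissue carried the same genes. In HFD, 5 genes were higher over tissue than off tissue with intervals above 0, by 0.63 (log2) for Anxa5 (258 against 166 CPM), 0.41 for Ly6d (163 against 123 CPM), 0.37 for S100a10 (523 against 405 CPM), 0.36 for Krt8 (391 against 304 CPM) and 0.29 for Krt18 (205 against 168 CPM). Sprr1a (13.9 against 9.19 CPM), Krt23 (4.41 against 3.67 CPM), Anxa2 (78.7 against 74.4 CPM), S100a11 (57.9 against 54.7 CPM) and S100a6 (34.7 against 33.5 CPM) had intervals that include 0. In NCD, Ly6d was at 7.13 CPM off tissue and 6.58 CPM over tissue, so its NCD level over tissue did not exceed that of the spots off tissue beyond counting error. Of the 10 genes only S100a10 was higher over tissue in NCD with an interval above 0 (log2 0.13, 0.05 to 0.21). Krt8 (-0.16, -0.25 to -0.06) and S100a6 (-0.41, -0.65 to -0.17) were lower over tissue than off it. The other genes had intervals that include 0. Subtracting the level off tissue, weighted by the ratio of the median depths (0.063 in HFD and 0.81 in NCD), gave larger HFD to NCD log2 ratios, at 7.57 for Ly6d, 4.74 for Krt8, 2.72 for Krt18 (then past 2-fold), 4.35 for Krt23, 4.15 for Anxa2, 3.97 for Anxa5, 2.93 for S100a10 and 3.74 for S100a11. For Sprr1a and S100a6 nothing was left in NCD, so no ratio could be given. The ratios after subtraction have no intervals. For Ly6d (49 UMIs off tissue in NCD, 5.28 to 9.43 CPM) counting error allows that nothing was left in NCD. The same holds for Krt23 (5 UMIs, 0.24 to 1.70 CPM), so these 2 ratios are not measured levels. The part of RNA that moved between spots in the differences within a section was not tested.

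Ly6d was found in most spots of the HFD section and the less abundant Sprr1a in fewer. A Ly6d UMI was present in 3008 of 3594 HFD spots (83.7%, 82.4 to 84.9) and in 174 NCD spots (4.71%, 4.05 to 5.45), with at most 42 and 3 UMIs in a spot. With each spot drawn down to 3000 UMIs, which left out 56 HFD and 1585 NCD spots, the shares were 35.5% and 2.37%. Sprr1a UMIs were present in 623 HFD spots (17.3%, 16.1 to 18.6), and at 3000 UMIs in 3.70% of HFD spots and in 0 of 2107 NCD spots, which allows a share of up to 0.175% by the exact interval. The 10% of spots richest in a gene held 36.2% of all HFD Ly6d UMIs, 73.7% of the Sprr1a UMIs, 65.3% of the S100a6 UMIs and 23.2% of the S100a10 UMIs. This share is larger for rare genes. For Krt23, with 318 UMIs, it was 100%, although its variance was only 1.06 times the counting variance. The shares of genes at unlike levels are therefore not compared. S100a6 varied most between HFD spots, with a variance of 5.34 times the counting variance, followed by Ly6d at 2.38, Sprr1a at 2.15 and Krt8 at 1.96.

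Position in the lobule was read from the spots themselves. Each spot with at least 20 UMIs of 10 pericentral genes (led by Cyp2e1) and 9 periportal genes (led by Hsd17b13 and Cyp2f2) was scored by the pericentral share of these UMIs, and the spots of a section were split into 3 equal groups, here called the periportal, middle and pericentral zones. In NCD 1292 spots, with a median of 717 UMIs, could not be scored, against 35 in HFD. The periportal zone reached up to a score of 0.73 in NCD and 0.58 in HFD, and the middle zone up to 0.92 and 0.81. The pericentral genes summed to 11260 CPM in NCD and 6503 CPM in HFD. Zones of the same name therefore need not mark like positions in the sections. In HFD, 2 of the 10 genes were at least 1.4-fold (log2 0.5) higher in the pericentral than in the periportal zone and 3 were lower, beside 6.43% and 5.17% of 10781 genes. Median UMIs per spot were 24469, 14732 and 17361 from the periportal to the pericentral zone. Within groups of spots of like depth each HFD ratio of the pericentral to the periportal zone below kept its sign. Anxa2 was then at 0.47, below the threshold. Ratios with the middle zone were not recomputed within groups of like depth.

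Ly6d was highest in the middle of the HFD lobule. It stood at 154 CPM in the periportal zone, 198 CPM in the middle zone and 143 CPM in the pericentral zone, so the middle exceeded the periportal zone by 0.36 (log2, 0.29 to 0.42) and the pericentral zone by 0.46 (0.39 to 0.53). Over 5 groups it went from 141 through 187, 199 and 178 to 127 CPM. In NCD the zones had 6.62, 6.44 and 7.03 CPM, with 59 to 67 UMIs each, and no difference was detectable at this depth.

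Sprr1a, Krt8 and Krt18 were all lower on the central than on the portal side in HFD, Krt8 by less than 1.4-fold. Sprr1a went from 18.8 CPM through 13.5 to 7.57 CPM (log2 pericentral over periportal -1.31, -1.57 to -1.06), Krt8 from 435 through 398 to 323 CPM (-0.43, -0.47 to -0.39) and Krt18 from 237 through 206 to 158 CPM (-0.59, -0.65 to -0.53). In the NCD section Krt8 ran the other way, from 134 CPM in the periportal to 155 CPM in the pericentral zone (0.21, 0.10 to 0.33), and Krt18 was level at 130.5 and 130.3 CPM. Between zones cut separately in each section, the HFD to NCD log2 ratio of Krt8 was 1.70 in the periportal and 1.06 in the pericentral zone. That of Krt18 was 0.86 and 0.28. Krt23 had the opposite slope in HFD, with 3.73, 3.14 and 6.55 CPM (0.81, 0.44 to 1.18). In NCD it had 12, 3 and 7 UMIs in the zones, too few for a direction.

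Anxa2 was higher on the central side in HFD, from 63.6 CPM through 87.5 to 90.8 CPM (0.51, 0.42 to 0.61), just past the threshold, and was 10.7, 8.74 and 12.3 CPM in the NCD zones. Anxa5 was nearly flat in HFD at 246, 268 and 264 CPM, as was S100a10 at 504, 539 and 534 CPM, whereas in NCD S100a10 went from 219 through 243 to 289 CPM (0.40, 0.31 to 0.49). S100a11 was at 57.0, 63.6 and 53.3 CPM in HFD (-0.10, with an interval that includes 0).

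S100a6 fell from 46.4 through 33.0 to 19.1 CPM in HFD (-1.28, -1.45 to -1.13). In NCD it fell from 30.7 to 16.6 CPM (-0.89, -1.19 to -0.59) and S100a11 from 17.6 to 9.72 CPM (-0.86, -1.26 to -0.47). These were the only 2 of the 8 genes with at least 100 UMIs that passed 1.4-fold in NCD, both lower, beside 3.71% of 7637 genes lower and 10% higher. Both NCD differences were gone without the spots richest in duct, fibroblast and smooth muscle genes, at 0.04 for S100a6 and 0.13 for S100a11. In HFD without these spots S100a6 was at -0.61.

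**Figure D2:**
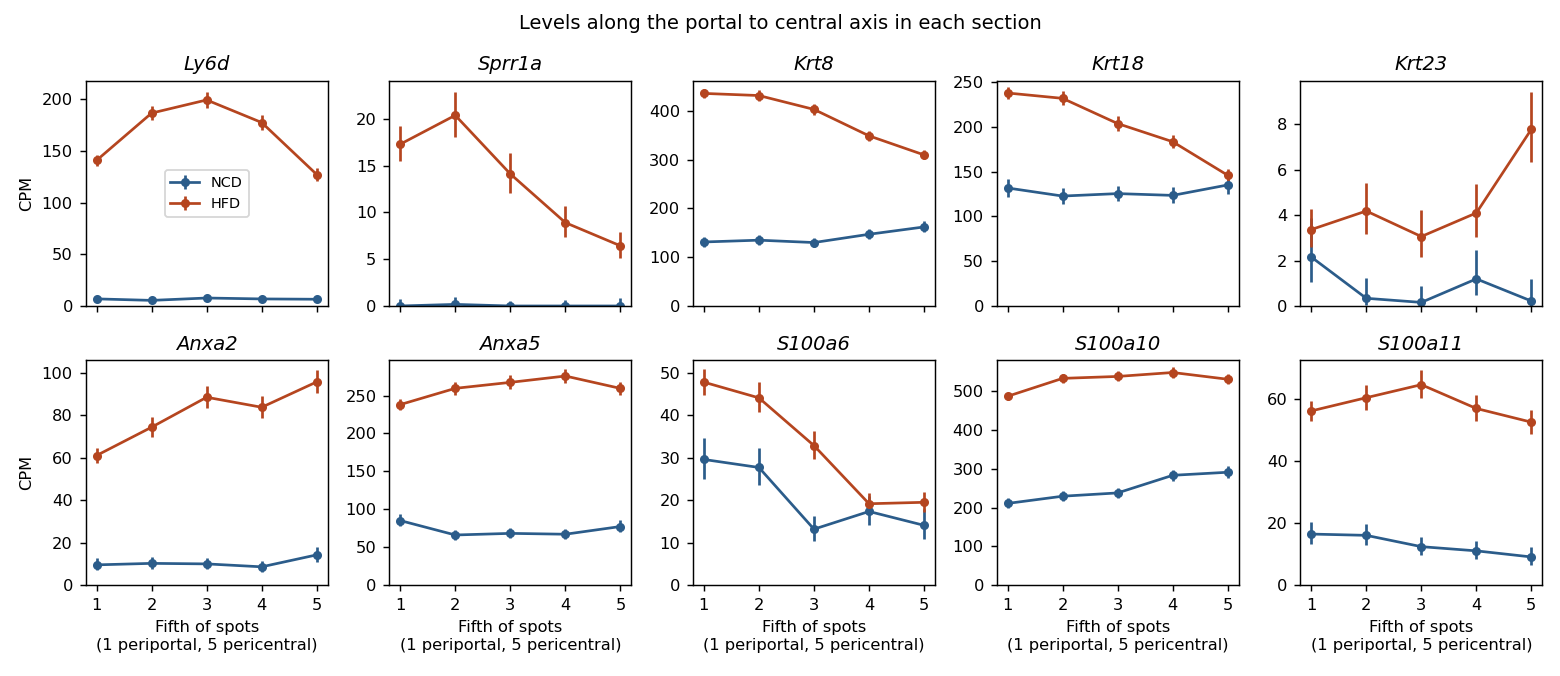
CPM of each gene (y axes from 0, own scale per gene) in 5 equal groups of spots from periportal (1) to pericentral (5), for NCD (blue) and HFD (red), with 95% counting intervals. Ly6d peaks in the middle group at 199 CPM in HFD, Sprr1a, Krt8, Krt18 and S100a6 are lower in group 5 than in group 1, and Anxa2 and Krt23 are highest in group 5.

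The spots with most Ly6d also held more of most other genes. Because a spot with a UMI is a deeper spot (median 20031.5 UMIs with a Ly6d UMI, 11232 without), the comparison was made in several ways. With Ly6d left out of the totals, the 3008 spots with a Ly6d UMI had more Sprr1a than the 586 spots without (15.1 against 3.86 CPM, log2 1.96, 1.43 to 2.55) and more S100a11 (59.9 against 41.0 CPM, 0.55, 0.38 to 0.72). These were 2 of the 9 other genes past 1.4-fold, beside 5.48% of 11383 genes higher and 1.41% lower. Drawn down to 5000 UMIs per spot, the Sprr1a difference was 1.13 (log2) and S100a11 was below the threshold. Anxa5 (0.46), Anxa2 (0.31), Krt8 (0.23), Krt18 (0.17) and S100a10 (0.16) were higher by less, with intervals above 0. Krt23 was at -0.31 with an interval that includes 0, and S100a6 was lower at -0.34 (-0.51 to -0.17).

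Ly6d was then taken relative to the depth of each spot (the Pearson residual, its count minus the count expected from depth, over the square root of the latter), and the 898 spots with the highest values were set against the 899 with the lowest. Their Ly6d levels were 338 and 35.4 CPM and their median depths 21023 and 20492 UMIs. Their depths at the 10th and 90th percentiles were 9255 and 37052 UMIs against 9346 and 35638. Between these groups 4 of the 9 genes were at least 1.4-fold higher and 1 lower, beside 4.23% and 0.566% of 10244 genes. Sprr1a rose from 5.50 to 27.6 CPM (log2 2.33, 2.03 to 2.64), S100a11 from 41.5 to 77.2 CPM (0.89, 0.77 to 1.02), Anxa2 from 61.0 to 100.9 CPM (0.73, 0.62 to 0.83) and Anxa5 from 215 to 309 CPM (0.52, 0.47 to 0.58). Krt18 (0.47), Krt8 (0.45) and S100a10 (0.33) were higher by less. S100a6 was now higher, at 29.6 against 38.1 CPM (0.37, 0.21 to 0.52), so its direction against Ly6d turned with the way spots were grouped. Krt23 fell from 5.61 to 3.18 CPM (-0.82, -1.29 to -0.36), and was the only one of the 9 genes to be lower in Ly6d-rich spots by this comparison. Without the spots richest in lipid macrophage genes, described below, Anxa5 was at 0.49, under the threshold, and Sprr1a at 2.001.

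With each HFD spot drawn down to 5000 UMIs before both calls, Sprr1a was present in 7.87% (6.64 to 9.24) of 1729 spots with and 3.62% (2.79 to 4.61) of 1740 spots without a Ly6d UMI. Without drawing down the shares were 19.8% and 4.44%. At equal depth S100a11 was present in 27.1% against 21.0%, Anxa2 in 34.6% against 29.7% and Krt18 in 64.5% against 59.7%, and these 4 genes had intervals that did not overlap, among 8 that reached 100 spots and beside 1.06% of 8187 genes. For Anxa5 (71.7% against 67.9%), Krt8 (84.2% against 82.3%), S100a10 (92.8% against 91.4%), S100a6 (13.997% against 13.3%) and Krt23 (2.02% against 2.24%) the intervals overlapped. A second random draw left Sprr1a and S100a11 with intervals apart, beside 1.16% of 8210 genes. At a depth of 3000 UMIs only Anxa5 and S100a10 had intervals apart, beside 0.796% of 6657 genes. Those of Sprr1a, S100a11, Anxa2 and Krt18 then overlapped. A depth of 8000 UMIs gave Sprr1a, S100a11, Anxa2, Krt18 and Anxa5, beside 1.41% of 9259 genes. Which genes had intervals apart thus changed with the depth and the draw, and Sprr1a was not apart at each depth.

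**Figure D3:**
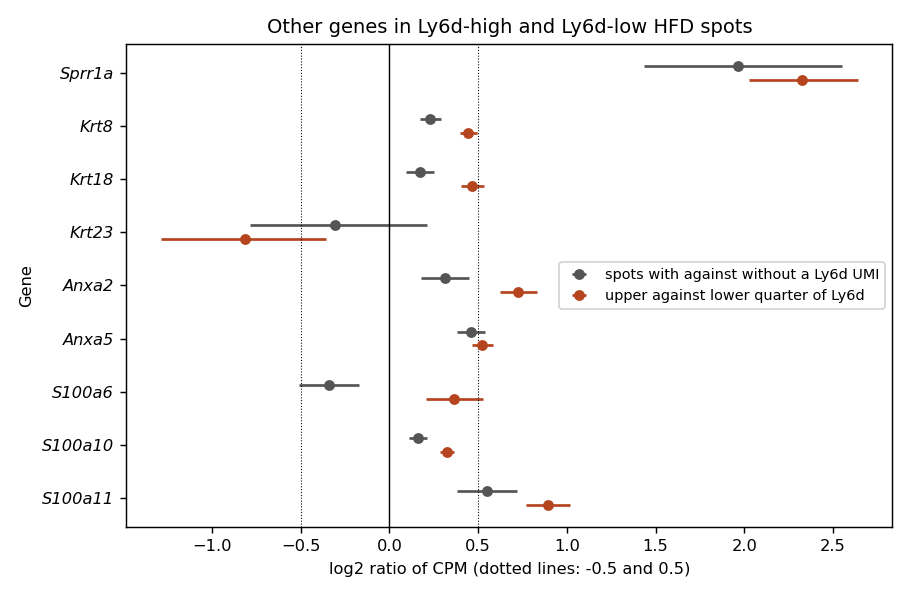
log2 ratio of CPM in the HFD section for the 9 genes other than Ly6d, between spots with and without a Ly6d UMI (grey) and between the highest and lowest of 4 equal groups by depth-adjusted Ly6d (red), with 95% counting intervals and dotted lines at -0.5 and 0.5. Sprr1a stands far to the right in both comparisons, Krt23 lies on the left, and S100a6 lies on opposite sides of 0.

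Read from the side of Sprr1a, 597 of its 623 HFD spots (95.8%) held a Ly6d UMI, against 81.2% of the 2971 spots without Sprr1a. The medians of depth were 24795 and 17492 UMIs. Ly6d was at 231 CPM in the Sprr1a spots and at 144 CPM in the others (log2 0.68, 0.62 to 0.74), and within each of 4 groups of like depth the log2 ratio lay between 0.58 and 0.68. S100a6 also passed 1.4-fold (0.59), beside 2.82% of 11383 genes, and Krt18 (0.43) and Krt8 (0.42) came close. In the 27 spots with 5 or more Sprr1a UMIs, which held 20.5% of all Sprr1a UMIs, Ly6d reached 437 CPM, Krt8 816 CPM, Krt18 459 CPM and S100a11 135 CPM. The hepatocyte list was at 137223 CPM in these spots and at 137258 CPM in spots without Sprr1a, while the pericentral list was at 2291 against 6974 CPM. The 27 spots were also deeper, with a median of 34130 UMIs, and had more of the lipid macrophage list described below (1185 against 685 CPM). In the HFD periportal zone, where the pericentral list was at 2294 CPM, the hepatocyte list was at 149652 CPM. The hepatocyte list was not compared between spots of like position and depth.

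Across the 3594 HFD spots the depth-adjusted values of Ly6d were most like those of Krt8 (Pearson r 0.33) among 7714 genes with at least 500 UMIs. The next were Gpx4 (0.33), which reduces lipid hydroperoxides, the apolipoprotein Apoa4 (0.32), the galectin Lgals3 (0.31), Sprr1a (0.30), Anxa5 (0.30), the cathepsin inhibitor Cstb (0.29), Mup20 (0.28), the acute phase protein Lcn2 (0.28) and S100a10 (0.27). Mup20 belongs to a family of genes with similar sequences, and whether its count holds reads of other members was not tested. The 5 genes most like Sprr1a were Krt8 (0.34), Ly6d (0.30), the metallothioneins Mt1 (0.29) and Mt2 (0.26), and Krt18 (0.27). These values are descriptions over spots of 1 library.

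Among the 10 genes, the closest pair in HFD was Krt8 and Krt18, the 2 keratins that form one filament (r 0.43), while over 3692 NCD spots their r was 0.00. The pair S100a6 and S100a11 was alike in both sections, at 0.28 in HFD and 0.24 in NCD. Anxa2 and its partner S100a10 had an r of 0.16 in HFD and -0.01 in NCD. Krt23 had values between -0.05 and -0.01 with each of the other genes in HFD. NCD spots had fewer UMIs, and sparse counts lower any correlation, so the sections are not compared on this.

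**Figure D4:**
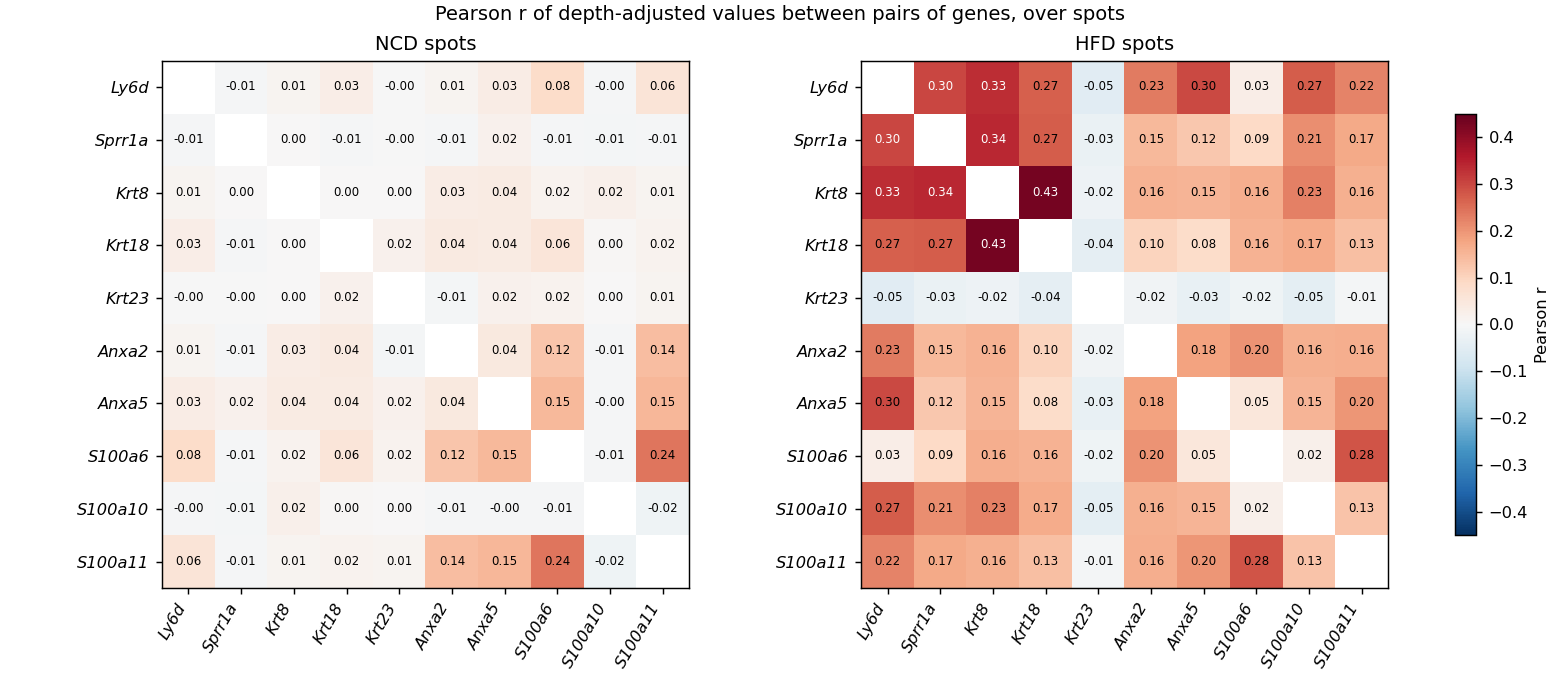
Pearson r of depth-adjusted values for each pair of the 10 genes, over 3692 NCD spots (left) and 3594 HFD spots (right). The pairs among Ly6d, Sprr1a, Krt8 and Krt18 have values from 0.27 to 0.43 in HFD, and S100a6 with S100a11 is the one pair above 0.2 in NCD.

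Markers of other cell types moved with several of the genes. The spots were ranked for each marker list by its depth-adjusted count, and the 5% of spots highest for a list (180 in HFD) were set against the rest of the section. S100a6 followed the stroma, with 260.4 CPM in the spots richest in smooth muscle genes (led by Acta2 and Tagln) against 23.1 CPM elsewhere in HFD (log2 3.497), and 3.02 for the fibroblast list (led by Dcn and Col3a1). In NCD these values were 3.18 and 3.19. The smooth muscle spots held 36.9% of all HFD S100a6 UMIs. S100a11 followed the same spots by 1.15 and 1.13 in HFD and by 2.37 and 2.33 in NCD, and Anxa2 by 0.69 and 0.70 in HFD and by 1.45 and 1.82 in NCD.

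Among the marker lists compared in this way, Sprr1a and Ly6d were highest in HFD spots rich in the lipid macrophage list (11 genes led by Ctsd, Lgals3, Fabp5 and Cd9, among which Ctsd and Cd9 are made by many cell types). Sprr1a was at 51.0 CPM there against 11.6 CPM elsewhere (log2 2.14, 1.92 to 2.36) and Ly6d at 314 against 154 CPM (1.03, 0.95 to 1.11). Higher levels in these spots were not particular to Sprr1a and Ly6d. S100a6 (1.88), S100a11 (0.92), Anxa2 (0.76), Krt18 (0.51), Anxa5 (0.50), Krt8 (0.50) and S100a10 (0.20) were also higher, with intervals above 0. Only Krt23 was lower (-1.48). These spots held 21.7% of the Sprr1a UMIs and 11.4% of the Ly6d UMIs. With these spots left out, the Ly6d log2 ratio of HFD to NCD was 4.59, and Sprr1a was still higher in spots with a Ly6d UMI, by 1.78. The summed lipid macrophage list was at 335 CPM in NCD and 717 CPM in HFD, with none of its genes at 0. Ctsd alone was at 244 and 456 CPM, so the sum, and the ranking of spots by it, rested mostly on this gene. No list without Ctsd was tried. The median log2 ratio of HFD to NCD over the 11 genes was 1.46, beside 0.24 over all genes. For the neutrophil list Sprr1a was higher by 1.64 and Ly6d by 0.48 in HFD, and for the monocyte list by 1.26 and 0.38. In NCD, where Ly6d had few UMIs, its value for the lipid macrophage list was 0.92 with an interval that includes 0 (13 UMIs), and it was higher in fibroblast spots by 0.96 (0.12 to 1.70). The part of macrophages in the Ly6d and Sprr1a levels was not tested.

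Hepatocyte-rich spots had less Ly6d (-0.75) and less Anxa2 (-1.01) in HFD, while Krt8 (0.05) and Krt18 (0.10) were near level there. Spots richest in lipid droplet genes (led by Plin2) had more Ly6d (0.45) and Krt23 (0.90). For bile duct, a list of 7 genes that leaves out Cldn3, which was at 81.5 CPM in NCD and 91.2 CPM in HFD and made up most of the full list, gave -0.14 for Ly6d, 1.01 for Sprr1a and 1.88 for S100a6 in HFD. In NCD it gave 0.93 for Ly6d (0.35 to 1.47, 34 UMIs), and the full list gave 1.395 (0.70 to 2.03, 23 UMIs), against -0.00 in HFD. In HFD, Krt8 (0.35) and Krt18 (0.48) were higher in the spots richest in the 7 duct genes. They were also higher in smooth muscle spots (0.34 and 0.48) and lower in endothelium spots (-0.19 and -0.39). The 7 duct genes summed to 10.0 CPM in NCD and 22.1 CPM in HFD, with none at 0.

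The cell types for which Ly6d and Sprr1a are best known were scarcely found. Of 14 squamous markers 9 were at 0 in each section, Krt5 and Krt14 in both, and the list summed to 12.6 CPM in NCD and in HFD, most of it Krt10. The 8 B lineage genes summed to 4.89 CPM in NCD and 3.59 CPM in HFD, and the 7 mesothelium genes to 1.69 and 1.66 CPM, most of it Gpm6a, with Upk3b and Upk1b at 0 in HFD. The other 13 Sprr genes in the files had 1 UMI in all in NCD and 13 UMIs in HFD.

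**Figure D5:**
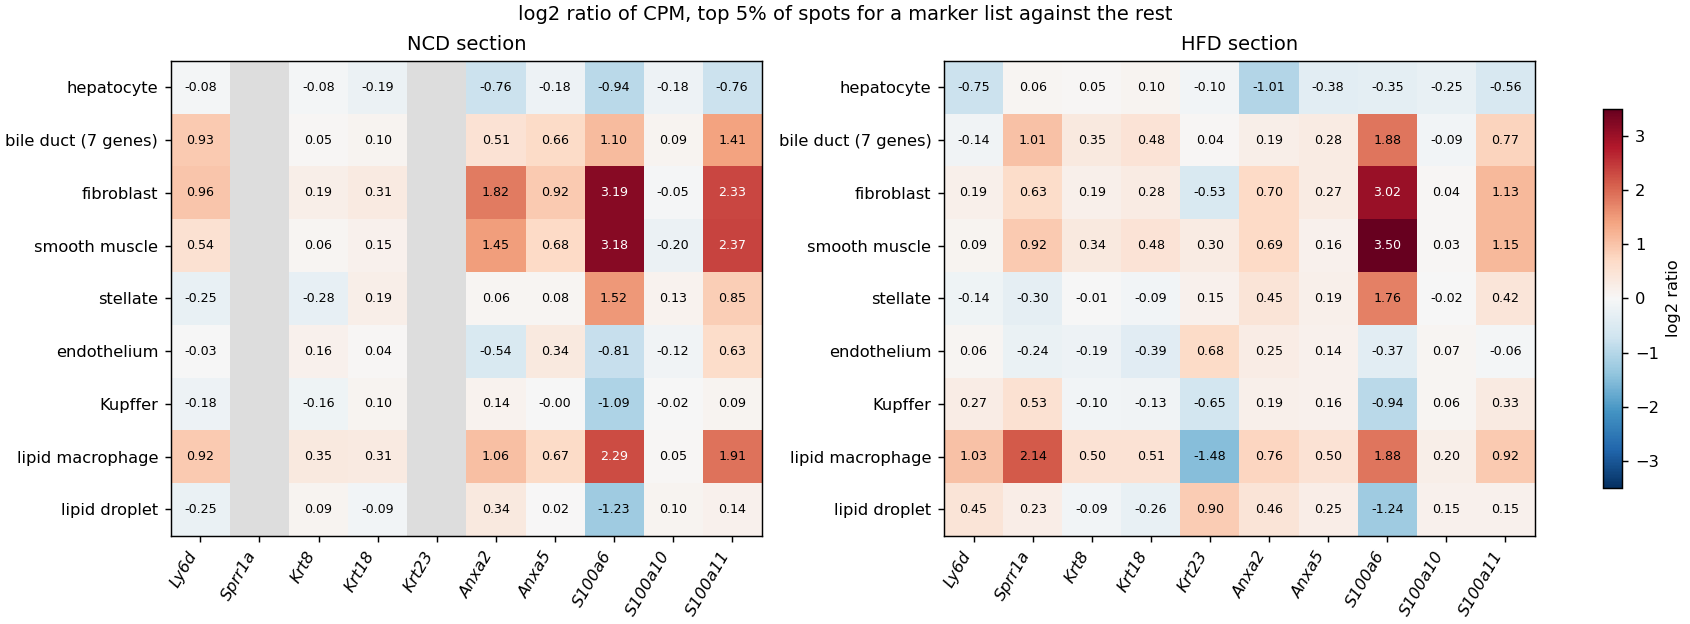
log2 ratio of CPM of each gene (columns) between the 5% of spots highest for a marker list (rows) and the remaining spots, in NCD (left) and HFD (right), with grey where a gene had under 100 UMIs in the section. The darkest cells are S100a6 in smooth muscle and fibroblast spots of both sections, and Sprr1a is highest in lipid macrophage spots at 2.14.

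The families of the 10 genes did not move as one between the sections. The medians below are log2 ratios of HFD to NCD over the genes with at least 100 UMIs, beside 0.24 over all 11913 genes. Of these 11913 genes 10.8% were at least 2-fold higher and 2.06% at least 2-fold lower. The lists were chosen with earlier results known, so nothing is read from their counts. Of the other annexins 4 of 8 were at least 2-fold higher (median 0.94), while the 4 most abundant, Anxa7 (0.28), Anxa6 (0.46), Anxa4 (0.62) and Anxa11 (0.19), stayed below. Of the other S100 family genes 2 of 7 were past 2-fold (median 0.13, leaving out S100pbp, whose product binds an S100 protein), and S100a1, the most abundant, was at 236 CPM in NCD and 258 CPM in HFD. Of other keratins 2 of 3 were past 2-fold, the duct keratins Krt19 (1.53) and Krt7 (1.20), with under 3 CPM each. Of other Ly6 genes 1 of 6 was past 2-fold, Ly6e, from 133 to 463 CPM (1.80).

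Genes known from stressed or injured hepatocytes were higher in HFD, with 14 of 19 past 2-fold, none lower and a median of 2.10. This count and those of the lists below stand beside 10.8% of all 11913 genes higher and 2.06% lower. These lists too were chosen with earlier results known. By UMIs of both sections together, which weights the deeper HFD section, the 4 most abundant were the metal-binding Mt1 (310.5 to 763 CPM, 1.297), the acute phase proteins Saa1 (107 to 529 CPM, 2.31) and Saa2 (38.6 to 244 CPM, 2.66), and the galectin Lgals1 (36.9 to 291 CPM, 2.98). Tmsb10 (143 to 161 CPM, 0.17) and Igfbp1 (137 to 153 CPM, 0.15), named after their values were seen, exceeded Saa1 in NCD and stayed below 2-fold. In the HFD spots with most depth-adjusted Ly6d, against those with least, levels were higher by 0.50 for Mt1, 0.65 for Saa1, 0.87 for Saa2 and 0.28 for Lgals1. Of the AP-1 family 4 of 6 were past 2-fold between the sections (median 1.43), with Jun at 1.304, Junb at 1.57 and Fos at 2.03, and Jund below at 0.63. Of 11 YAP target genes 2 were past 2-fold (median 0.38), and Ccn2 was at 0.70. Among genes of the actin cytoskeleton and of annexin partners 5 of 12 were past 2-fold (median 0.50), including Tmsb4x (1.12) and Actg1 (1.09) but not Actb (0.19) or Plg (-0.34). Of the filament partners 3 of 8 were past 2-fold, among them the small heat shock protein Hspb1, from 21.7 to 116 CPM (2.42), and Vim (1.16). Of 8 lipid droplet genes 5 were past 2-fold (median 1.44), and Plin2, which coats droplets, went from 388 to 697 CPM (0.84).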

How the data were processed

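The values are UMI counts per gene and spot, deposited by the authors, who used Space Ranger 1.3.1 to align reads, count UMIs and call spots over tissue, with no normalization and with the build mm10 per the labels. The annotation release is not given in the sources used here, and 32158 of 32285 gene identifiers were in GENCODE M21, which gave positions. The raw tables gave the spots off tissue. Spot positions and images were not used here.

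CPM is the summed UMIs of a gene over the total of the same spots, times 1000000. Sums have exact Poisson intervals, shares exact Clopper-Pearson intervals and ratios exact conditional binomial intervals, at 95%. Counts of 0 were bounded by 3 counts or by the interval. Genes needed at least 100 UMIs in a comparison. Spots were drawn down without replacement with seed 1. Python 3.11.15 was run with matplotlib 3.10.9, pandas 2.3.3, scipy 1.17.1 and numpy 2.4.6, and the ratio intervals were tested on simulated data.

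The 10 genes, the gene lists and the comparisons were chosen with earlier results of these data known. The genes named are those 10, up to 4 genes with the most UMIs of each list, and the 10 and 5 genes most like Ly6d and Sprr1a over HFD spots among genes with at least 500 UMIs. The duct list of 7 genes, the S100 list without S100pbp and the comparison by depth-adjusted Ly6d were added after seeing the data. Processed pseudogenes of Krt8 and S100a11 are annotated but not counted in the files, so reads from them cannot be told apart from those of the genes.

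Alternatives changed the scaling, the depth, the rule for zones and Ly6d spots, the subtraction of spots off tissue and the removal of spots rich in markers of other cells.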

Additional observations from a re-analysis of the deposited data

Results flagged for a closer look

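Krt8 ran in opposite directions along the lobule of the 2 sections. The log2 ratio of the pericentral to the periportal zone was -0.43 in HFD (-0.47 to -0.39) and 0.21 in NCD (0.10 to 0.33), with both intervals apart from 0 on opposite sides. The difference between the sections was not tested, since each diet has 1 section. In NCD the Krt8 level over tissue did not exceed that of the spots off tissue (141 against 157 CPM). Over the settings tried, the HFD value lay between -0.49 and -0.37 and the NCD value between 0.09 and 0.30.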

How the results depend on the processing

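No paired analysis was possible because each diet has 1 section. The count of genes at least 2-fold higher in HFD lay between 6 and 8 over the alternatives, but over different genes: Krt18 joined and Sprr1a and S100a6 had no ratio with the level off tissue subtracted, Sprr1a and Krt23 had none without the 1% of spots richest in each gene (the count of 6), Sprr1a had none at 3000 UMIs or without spots of other cell types, and S100a10 dropped out with centring on the median. All 75 log2 ratios recomputed for single genes in this contrast kept their direction, as did 97 of 99 for spots with and without Ly6d, 86 of 90 for the HFD zones and 57 of 72 for the NCD zones. The Ly6d log2 ratio was 4.86 with the mean of CPM per spot, 4.996 without the 1% of spots richest in the gene, 7.57 with the level off tissue subtracted and 4.31 at 3000 UMIs per spot. The value of 7.57 has no interval, since counting error allows that nothing was left in NCD after subtraction. The number of genes past 1.4-fold in either direction between HFD spots with and without a Ly6d UMI was 4 within groups of like depth. It was 1 at 5000 UMIs per spot. Between the highest and lowest groups of depth-adjusted Ly6d it was 5, with 4 higher and Krt23 lower, beside 4.23% and 0.566% of 10244 genes. Without lipid macrophage spots the latter count was 4. For the settings other than the groups of depth-adjusted Ly6d with all spots, no share of all genes was computed, so nothing is read from those counts. The number of genes with shares apart at equal depth was 2 at 3000 UMIs (Anxa5 and S100a10, beside 0.796% of 6657 genes). With another random draw it was 2 (Sprr1a and S100a11, beside 1.16% of 8210 genes). Without duct, fibroblast and smooth muscle spots, the NCD zone log2 ratios of S100a6 and S100a11 turned to 0.035 and 0.13, and the cause was not tested. The percentage of genes at least 2-fold higher was 6.79 with a minimum of 1000 UMIs. Depth limits Sprr1a and Krt23 in NCD, where 1 and 23 UMIs allow no comparison of zones.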

Other observations

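S100g, a calcium-binding protein of the S100 family chosen here after its values were seen, had 3 UMIs (0.103 CPM) in NCD and 328 UMIs (4.55 CPM) in HFD, a log2 ratio of 5.46 with a counting interval from 3.90 to 7.75. In the HFD section the neutrophil list (6 genes, led by S100a8 and S100a9) was at 53.4 CPM in the 27 spots with 5 or more Sprr1a UMIs and at 10.9 CPM in spots without Sprr1a. In the same spots the list of hepatocyte stress genes was at 6072 against 2724 CPM, and the lipid droplet list at 1305 against 1500.2 CPM. The 27 spots were deeper (median 34130 against 17492 UMIs) and had less of the pericentral list (2291 against 6974 CPM). In the HFD periportal zone the neutrophil, stress and lipid droplet lists were at 13.7, 3626 and 1093 CPM. In the pericentral zone they were at 9.92, 2158 and 1922 CPM. Position and depth were not held equal in this comparison.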
